A study of Mus musculus with 9 samples.

Results

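The genes described here are 32 genes of B cells, the lymphocytes that carry immunoglobulin as their antigen receptor. They comprise surface antigens and receptor chains, inhibitory receptors, survival receptors, and kinases and adaptors that carry the receptor's signal. The others are transcription factors of the lineage and Vpreb3, which binds immunoglobulin chains in developing B cells. They were chosen by gene symbol and read from the probe sets whose annotation gives that symbol alone. Of the 32, 31 had such a probe set, 56 of the 45101 probe sets on the array, and Lyn was not analysed here. The series holds 18194 genes with a single symbol.

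RNA of whole lungs was measured on 9 Affymetrix 3' expression arrays, 1 per mouse. All mice were female C57BL/6 aged 14 weeks, and all had received a replication-deficient adenovirus into the trachea 14 days before the lungs were taken. The virus AdV-IL4 carried mouse IL-4 (3 IL-4 mice), AdV-IL4d2 carried the mouse form IL-4d2, made by splicing that leaves out an exon (3 IL-4d2 mice), and AdV-NULL carried no cytokine (3 control mice). Every group was therefore infected, and no uninfected lung was analysed here. The comparisons ask how each form of the cytokine changed the lung relative to the empty virus, and whether the forms differ.

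B cells recognise antigen through surface immunoglobulin, whose signal passes through the chains Cd79a and Cd79b to the kinases Syk and Btk, the adaptor Blnk and the phospholipase Plcg2. Coreceptors raise that signal or, like Cd22 and Cd72, dampen it, and the receptors of the cytokine BAFF keep mature B cells alive. IL-4 is a growth, survival and class-switch factor for B cells, and an inflamed lung can hold B cells scattered in the tissue or gathered in follicles beside the airways.

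Values are MAS5 signals on a linear scale, and differences are those of log2(signal + 16). A gene was called where its adjusted p in the limma test over all probe sets was below 0.05. Signals had array medians of 156 to 171, and 23824 probe sets, with 11984 named genes among them, were bright enough to be tested. The surfactant gene Sftpc, a marker of lung epithelium, had signals of 33789.6 to 38907 in IL-4 mice, 29900.1 to 31486 in IL-4d2 mice and 25944 to 41165 in control mice. The Il4 probe set, whose position along the transcript is unknown here, had signals of 301 to 379 in IL-4 mice, 499 to 1172 in IL-4d2 mice and 15.8 to 71.6 in control mice, without overlap between cytokine and control mice. Muscle genes set 2 arrays apart. Their summed signal over 10 genes was 83704 in control mouse 1, the highest, and 1828 in IL-4 mouse 2, the lowest, so counts are also given without these arrays. The ratio of 3' to 5' signal of Gapdh, a sign of RNA or label integrity, was 1.71 ± 0.143 in IL-4 mice, 1.46 ± 0.112 in IL-4d2 mice and 1.28 ± 0.284 in control mice (SD, n = 3 each), and that of Actb was 3.23 ± 0.486, 2.58 ± 0.226 and 2.65 ± 0.324 in the same order. The part of these ratios in the results was not tested.

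Of the 31 genes, 30 were tested. Pou2f2, which encodes the octamer-binding factor Oct-2, stayed below the array median on all 9 arrays with each of its 3 probe sets (signals of 10.6 to 138) and was not tested. Another 26 were above the median on all 9 arrays. Cd79a entered through the 6 arrays of the cytokine viruses alone. Pax5, above the median on 4 arrays, also entered through arrays of the cytokine viruses alone. Fcrl1 and Fcrla were above the median on 3 and 8 arrays, control arrays among them.

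Relative to the overall signal of each array, 13 of the 30 tested B cell genes rose with IL-4 against control virus and 0 fell, while 6.34% of all tested genes rose and 6.63% fell. The 17 others did not pass the test, with log2 differences from −0.84 to 0.69. The genes that rose were led by the transcription factor Spib, the inhibitory receptor Cd72 and the receptor chain Cd79a, and their changes lay between 1.37-fold and 2.66-fold. Of these, Cd79a was tested through arrays of the cytokine viruses alone. Its call was lost in 3 of 9 fits that left out 1 array. With IL-4d2, 4 of the 30 rose and 0 fell, beside 0.859% and 0.401% of all genes. These were Spib, Cd72, Ikzf3 and Ms4a1, each of which also rose with IL-4. An unadjusted p under 0.05 was reached by 18 of the 30 genes with IL-4 and 13 with IL-4d2, beside 3466 and 1858 of all 11984 tested genes. All mice of the cytokine group lay above all control mice in 16 genes with IL-4 and 13 with IL-4d2, beside 14.9% and 11.4% of all genes. The median log2 difference of the 30 genes was 0.50 with IL-4 and 0.27 with IL-4d2, beside −0.02 and −0.00 over all tested genes. Both comparisons use the same 3 control arrays, so they are not independent. In whole lung, more B cells, more RNA per B cell and a change in other cells that express these genes cannot be told apart.

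By role, 4 of 5 surface antigens and receptor chains rose with IL-4, as did 3 of 9 inhibitory and modulatory receptors, 2 of 2 survival receptors among the 32 genes, 1 of 7 kinases, adaptors and signalling enzymes and 3 of 6 transcription factors. With IL-4d2 the counts were 1 of 5, 1 of 9, 0 of 2, 0 of 7 and 2 of 6. Vpreb3, counted apart from these roles, passed the test with neither form.

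**Figure D1:**
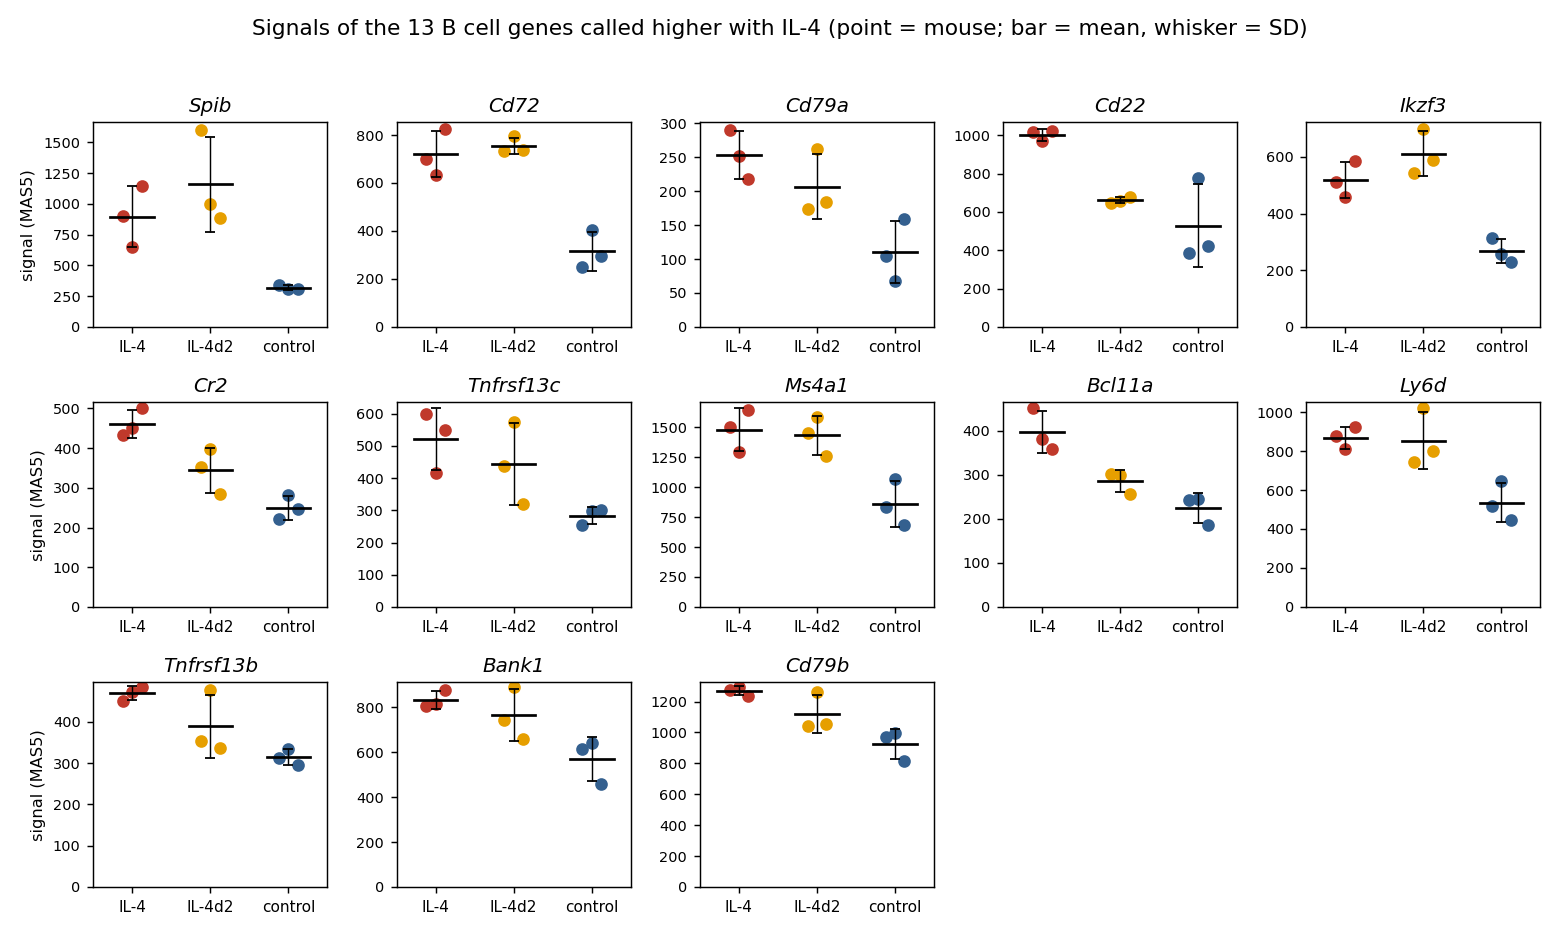
MAS5 signal (linear, axis from 0) of the 13 B cell genes that rose with IL-4, by group, with a point per mouse, a bar at the mean and a whisker of 1 SD (n = 3 each). All 3 IL-4 mice lie above all 3 control mice in each panel, while the IL-4d2 mice stand near or above the IL-4 mice for Spib, Cd72, Ikzf3 and Ms4a1 and nearer the control mice for Cd22 and Bcl11a.

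Ms4a1 encodes CD20, a surface protein of mature B cells. Its signal was 1506, 1289 and 1643 in the IL-4 mice, 1451, 1583 and 1260 in the IL-4d2 mice and 834, 1067 and 684 in the control mice. Every mouse given a cytokine virus was above every control mouse. Ms4a1 rose 1.72-fold with IL-4 (log2 difference 0.78 ± 0.15 SE, limma adjusted p = 0.0079), and the IL-4d2 change was 1.67-fold (0.74 ± 0.15, adjusted p = 0.0377). A second probe set of the gene gave 0.83 (adjusted p = 0.00374) and 0.67 (adjusted p = 0.0385). The call with IL-4 held in each of 9 fits that left out 1 array, while the call with IL-4d2 was lost in 6 of them.

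Cd79a and Cd79b form the signalling pair of the antigen receptor. Cd79a had signals of 290, 252 and 218 in the IL-4 mice, 174, 261 and 185 in the IL-4d2 mice and 104, 67.6 and 159 in the control mice, each of the last 3 below its array's median. It rose 2.22-fold with IL-4 (1.15 ± 0.27, adjusted p = 0.0203), a call lost when control mouse 1 or 2 or IL-4 mouse 1 was left out. Its IL-4d2 difference of 0.86 was not called (adjusted p = 0.165), although the groups did not overlap. The promoter window of Cd79a, shown because the gene has the largest increase among the receptor chains, holds the E box CAGGTG (capitals), to which the B lineage factor E2A can bind, 154 bases before the start.

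Cd79a (GRCm38.p6, chr7:24897247-24897546, plus strand): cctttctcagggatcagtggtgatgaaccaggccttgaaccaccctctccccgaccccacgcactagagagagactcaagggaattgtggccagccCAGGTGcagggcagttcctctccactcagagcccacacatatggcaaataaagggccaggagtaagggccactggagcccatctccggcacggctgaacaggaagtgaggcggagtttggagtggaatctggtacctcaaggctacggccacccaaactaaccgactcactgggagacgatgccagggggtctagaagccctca

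Cd79b had signals of 1277, 1296 and 1239 in the IL-4 mice, 1040, 1262 and 1058 in the IL-4d2 mice and 968, 997 and 814 in the control mice. The IL-4 mice lay within a narrow band above all control mice, and 1 IL-4d2 mouse reached that band. Cd79b rose 1.37-fold with IL-4 (0.45 ± 0.11, adjusted p = 0.0203), and its call was lost without control mouse 3 or IL-4 mouse 2. Cr2, a complement receptor of mature B cells and follicular dendritic cells, had signals of 433, 449 and 501 in the IL-4 mice, 352, 397 and 284 in the IL-4d2 mice and 222, 282 and 248 in the control mice. The 3 groups stood in that order without overlap, the lowest IL-4d2 mouse only just above the highest control mouse. Cr2 rose 1.80-fold with IL-4 (0.84 ± 0.15, adjusted p = 0.00535). With IL-4d2 it had a difference of 0.43 (adjusted p = 0.213). Cd37, a tetraspanin, had differences of 0.15 with IL-4 and 0.13 with IL-4d2, neither called. A dimmer probe set of Cd37 gave −0.23 with IL-4 and 0.29 with IL-4d2, also not called.

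Among the receptors that dampen or tune the antigen signal, Cd72, a lectin-like inhibitory receptor, had the largest increase. Its signal was 700, 635 and 823 in the IL-4 mice, 733, 794 and 739 in the IL-4d2 mice and 248, 404 and 294 in the control mice. All 6 cytokine mice stood clear of the control mice and mixed with one another. Cd72 rose 2.25-fold with IL-4 (1.17 ± 0.16, adjusted p = 0.00109), and under IL-4d2 it rose 2.37-fold (1.25 ± 0.16, adjusted p = 0.00178), and both calls held in each of the 9 fits with 1 array left out. Its log2 difference between the forms was −0.08, with a 95% interval of −0.43 to 0.28.

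Cd22, a coreceptor that binds sialic acid and recruits the phosphatase Ptpn6, showed another pattern. Its signal was 1014, 968 and 1022 in the IL-4 mice, 647, 655 and 677 in the IL-4d2 mice and 386, 775 and 422 in the control mice. The IL-4 mice lay above all other mice, and control mouse 2 stood above the IL-4d2 mice. Cd22 rose 1.96-fold with IL-4 (0.97 ± 0.20, adjusted p = 0.00986), and its log2 difference was 1.28 without control mouse 2. With IL-4d2 the difference was 0.38 (adjusted p = 0.413). The promoter windows of both genes are shown, as the inhibitory receptors with the largest changes. In that of Cd72 the capitals mark the ETS core GAGGAAGT, a motif of the family to which Spib belongs, read on the opposite strand 49 bases before the start. In that of Cd22 they mark the EBF motif 49 bases before the start and the E box on the opposite strand 245 bases before it, and these do not overlap.

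Cd72 (GRCm38.p6, chr4:43454577-43454876, minus strand): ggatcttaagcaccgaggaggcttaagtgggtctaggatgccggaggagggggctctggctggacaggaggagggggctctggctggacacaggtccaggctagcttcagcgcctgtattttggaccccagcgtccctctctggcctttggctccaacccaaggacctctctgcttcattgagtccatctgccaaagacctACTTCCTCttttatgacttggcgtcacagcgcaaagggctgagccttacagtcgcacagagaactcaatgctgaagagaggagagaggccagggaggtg

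Cd22 (GRCm38.p6, chr7:30878979-30879278, minus strand): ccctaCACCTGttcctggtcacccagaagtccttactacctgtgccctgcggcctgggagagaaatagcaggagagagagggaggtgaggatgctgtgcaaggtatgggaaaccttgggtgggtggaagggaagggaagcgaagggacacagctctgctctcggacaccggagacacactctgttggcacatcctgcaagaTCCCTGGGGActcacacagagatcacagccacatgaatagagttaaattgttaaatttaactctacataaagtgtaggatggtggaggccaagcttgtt

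Ly6d, a surface protein anchored in the membrane by lipid and known from B cell progenitors and also from squamous epithelium, had signals of 877, 809 and 921 in the IL-4 mice, 742, 1020 and 799 in the IL-4d2 mice and 518, 644 and 445 in the control mice. The cytokine mice all lay above the control mice. Ly6d rose 1.62-fold with IL-4 (0.70 ± 0.15, adjusted p = 0.0125) and missed the threshold with IL-4d2 (0.66 ± 0.15, adjusted p = 0.0547). Of 7 squamous epithelial markers with a probe set, 3 were below the array median on all 9 arrays, 2 were tested and 0 were called with either form or had an unadjusted p under 0.05. Their summed signal was 511 to 1373 in IL-4 mice, 497 to 1045 in IL-4d2 mice and 781 to 1057 in control mice. The 6 uncalled receptors of the group, the inhibitory receptor Btla, the Fc receptor-like genes Fcrl1 and Fcrla, the IgM receptor Fcmr, the Toll-like receptor relative Cd180 and the CD45-associated Ptprcap, had log2 differences of 0.03 to 0.66 with IL-4 and −0.24 to 0.61 with IL-4d2.

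Tnfrsf13c and Tnfrsf13b, receptors of the survival factor BAFF, rose with IL-4. Tnfrsf13c, the BAFF receptor on which mature B cells depend, had signals of 599, 415 and 551 in the IL-4 mice, 436, 575 and 320 in the IL-4d2 mice and 253, 297 and 300 in the control mice. It rose 1.78-fold with IL-4 (0.83 ± 0.20, adjusted p = 0.0206), a call lost when control mouse 1 or IL-4 mouse 1 or 3 was left out. Its IL-4d2 difference of 0.58 was not called (adjusted p = 0.195), with 1 IL-4d2 mouse close to the control mice and the others within the range of the IL-4 mice. Tnfrsf13b, or TACI, which binds BAFF and the related APRIL, had signals of 451, 471 and 484 in the IL-4 mice, 354, 477 and 336 in the IL-4d2 mice and 312, 335 and 296 in the control mice. It rose 1.47-fold with IL-4 (0.55 ± 0.14, adjusted p = 0.0291), and the call was lost in 5 of 9 fits with 1 array left out (each IL-4 mouse, control mouse 1 and control mouse 3). Its difference with IL-4d2 was 0.28 (adjusted p = 0.406). Tnfrsf17, another receptor of BAFF and APRIL and not among the 32 genes, was below the array median on all 9 arrays and was not tested. Tnfsf13b, the gene of BAFF itself, had differences of −0.09 with IL-4 (adjusted p = 0.731) and −0.33 with IL-4d2 (adjusted p = 0.317).

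Of the 7 signalling genes, Bank1 rose with IL-4. This scaffold, which is phosphorylated after antigen receptor engagement, had signals of 805, 815 and 878 in the IL-4 mice, 746, 890 and 661 in the IL-4d2 mice and 615, 641 and 460 in the control mice. The IL-4d2 mice lay above the control mice and overlapped the IL-4 mice. Bank1 rose 1.46-fold (0.54 ± 0.14, adjusted p = 0.0317), a call that 5 of 9 fits with 1 array left out did not keep (each IL-4 mouse, control mouse 1 and control mouse 3), and its IL-4d2 difference was 0.41 (adjusted p = 0.199). Btk, Blnk and Plcg2 did not pass the test. With IL-4 the differences were 0.69 for the kinase Btk (adjusted p = 0.0835), 0.56 for Blnk (0.061) and 0.37 for Plcg2 (0.0773), and in each the IL-4 and control mice did not overlap. The Src family kinase Blk had a difference of 0.31 (adjusted p = 0.157). Swap70 and Ralgps2, which act on small GTPases, had differences of −0.04 and −0.18 with IL-4, and for Ralgps2 all IL-4 mice lay below all control mice. With IL-4d2, these 6 genes had differences of −0.20 to 0.58.

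Spib, an ETS family factor of B cells and plasmacytoid dendritic cells, had the largest log2 difference of all 30 genes with either form. Its signal was 897, 648 and 1143 in the IL-4 mice, 1597, 996 and 883 in the IL-4d2 mice and 342, 306 and 307 in the control mice. The control mice lay close together, and the cytokine mice stood far above them with a wide spread. Spib rose 2.66-fold with IL-4 (1.41 ± 0.22, adjusted p = 0.00228), and under IL-4d2 it rose 3.40-fold (1.77 ± 0.22, adjusted p = 0.00134), in every fit with 1 array left out. The difference between the forms was −0.35, with a 95% interval of −0.83 to 0.13. Of 7 plasmacytoid dendritic cell markers with a probe set, 5 were tested and 0 were called with either form (2 with an unadjusted p under 0.05 in each comparison). Their summed signal was 9783 to 10486 in IL-4 mice, 9670 to 11012 in IL-4d2 mice and 10040 to 11922 in control mice, and the defining marker Siglech was above the array median on 2 of 9 arrays. The promoter window of Spib is shown because the gene changed most. It held none of the 4 motifs searched.

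Spib (GRCm38.p6, chr7:44532022-44532321, minus strand): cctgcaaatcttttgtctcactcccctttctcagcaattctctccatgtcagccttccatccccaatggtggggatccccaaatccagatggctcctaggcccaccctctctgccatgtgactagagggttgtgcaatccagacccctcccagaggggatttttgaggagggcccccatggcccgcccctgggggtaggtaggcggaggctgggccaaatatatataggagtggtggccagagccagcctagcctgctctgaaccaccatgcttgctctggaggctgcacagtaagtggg

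Ikzf3, the Ikaros family factor Aiolos of mature B cells, which some T cells also express, had signals of 511, 459 and 585 in the IL-4 mice, 544, 698 and 590 in the IL-4d2 mice and 315, 259 and 230 in the control mice. It rose 1.89-fold with IL-4 (0.92 ± 0.15, adjusted p = 0.00305), and under IL-4d2 it rose 2.21-fold (1.15 ± 0.15, adjusted p = 0.00197), with no overlap with the control mice and in every fit with 1 array left out. Bcl11a, a zinc finger factor required for B cell development and also used by plasmacytoid dendritic cells, had signals of 451, 381 and 359 in the IL-4 mice, 301, 299 and 257 in the IL-4d2 mice and 242, 245 and 186 in the control mice. The IL-4d2 mice lay between the other groups. Bcl11a rose 1.72-fold with IL-4 (0.78 ± 0.16, adjusted p = 0.00938), and its difference with IL-4d2 was 0.33 (adjusted p = 0.366). Its probe sets disagreed in size with IL-4, since 1 of the dimmer tested ones gave 0.85 (adjusted p = 0.0355) and the other 0.20 (adjusted p = 0.62). With IL-4d2 the same probe sets gave 0.46 (limma adjusted p = 0.399) and −0.27 (adjusted p = 0.63). The direction with IL-4d2 and the order of the groups therefore depended on the probe set. The probe set with 0.85 was above the array median in 0 control mice. It entered the test through arrays of the cytokine viruses alone.

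The factors that specify the lineage did not pass the test. Pax5, which commits progenitors to the B lineage, was dim, with signals of 110 to 184 in IL-4 mice, 97 to 177 in IL-4d2 mice and 79.8 to 150 in control mice, and a difference of 0.37 with IL-4 (adjusted p = 0.496). Ebf1, which acts before Pax5 in B cells and is also expressed outside the lineage, in fat and stromal cells, had differences of −0.25 with IL-4 (adjusted p = 0.372) and −0.48 with IL-4d2 (adjusted p = 0.202), and each of its 4 tested probe sets had a negative difference with IL-4. Bcl6, the master regulator of germinal centre B cells, had differences of 0.19 with IL-4 and −0.06 with IL-4d2. Vpreb3, which binds immunoglobulin chains in developing B cells, had signals of 961, 342 and 506 in the IL-4 mice, 636, 552 and 892 in the IL-4d2 mice and 1159, 907 and 955 in the control mice. The IL-4d2 mice all lay below the control mice. The differences of Vpreb3, −0.84 with IL-4 (adjusted p = 0.0857) and −0.55 with IL-4d2 (adjusted p = 0.42), were not called, and 1 IL-4 mouse lay within the control range. Without that array, IL-4 mouse 1, Vpreb3 was called lower with IL-4 (−1.24, limma adjusted p = 0.00543).

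**Figure D2:**
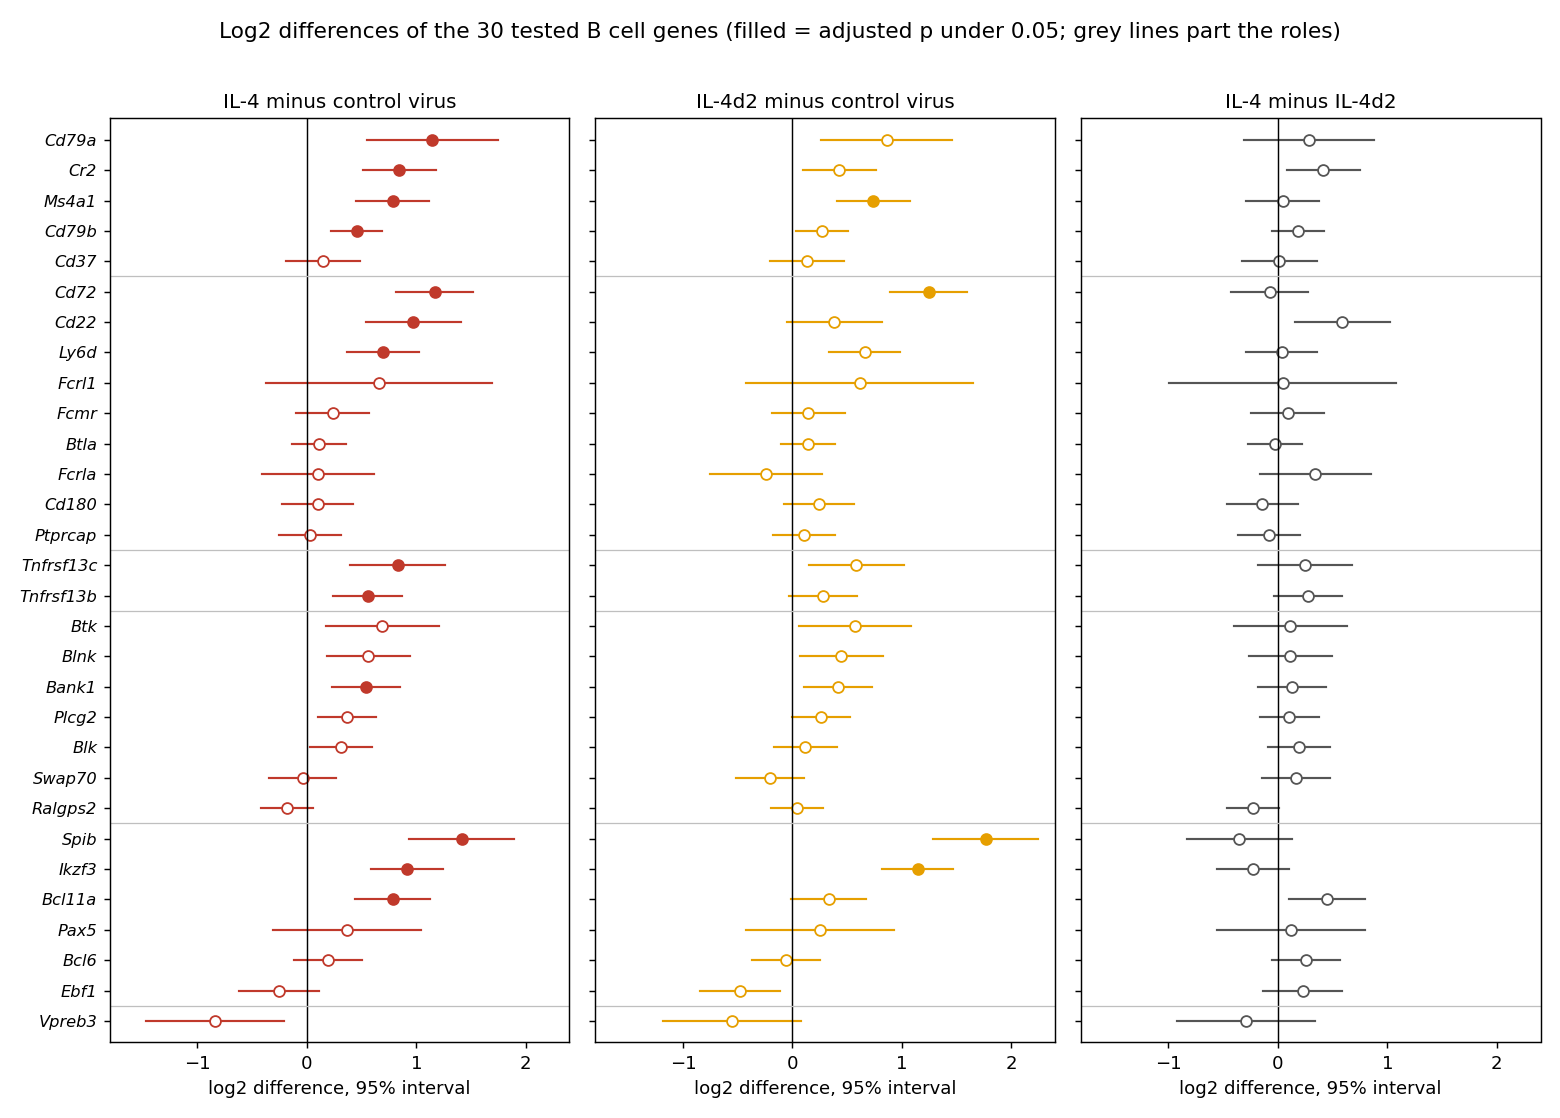
Log2 differences of log2(signal + 16) of the 30 tested B cell genes with 95% intervals, for IL-4 minus control virus (left), IL-4d2 minus control virus (middle) and IL-4 minus IL-4d2 (right), ordered by role. Filled points passed the limma test after adjustment, under the deposited scaling. There are 13 on the left, 4 in the middle and 0 on the right.

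No B cell gene was called between IL-4 and IL-4d2, where 2.24% of all tested genes were called in either direction. Of the 30 genes, 22 had a positive difference, with a median of 0.12, and 3 had an unadjusted p under 0.05, beside 2218 of all 11984 tested genes. These 3 were Cd22, with a log2 difference of 0.59 (95% interval 0.16 to 1.02, limma adjusted p = 0.161), Bcl11a with 0.45 (0.11 to 0.80, adjusted p = 0.18) and Cr2 with 0.41 (0.08 to 0.75, adjusted p = 0.203). Each had all IL-4 mice above all IL-4d2 mice. Cd22 was called when control mouse 2 was left out and when the fit held only these groups. The 9 genes called with IL-4 and not with IL-4d2 are thus not shown to differ between the forms. Ms4a1, with 0.05 (−0.29 to 0.38), and Ly6d, with 0.04 (−0.29 to 0.36), had intervals on both sides of 0.

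These directions hold relative to the overall signal of each array, which the deposited scaling sets equal. When arrays were scaled to control transcripts added before hybridisation or before labelling, the median log2 difference of all probe sets was −0.44 or −0.77 with IL-4 and 0.12 or 0.28 with IL-4d2. Such a scaling moves all probe sets of an array alike, the B cell genes with them, whose medians were then 0.06 or −0.28 with IL-4 and 0.40 or 0.56 with IL-4d2. With IL-4, 7524 or 17197 of 23824 probe sets were called lower. Among the B cell genes, 2 (Spib and Cd72) were then called higher and 3 lower with IL-4 under the first scaling, and 1 (Spib) higher and 9 lower under the second. Of the 13 genes called under the deposited scaling, Cd79b, Ly6d, Tnfrsf13b and Bank1 turned negative under the second. With IL-4d2, 5 were called higher and 0 lower under either scaling. Between the forms the median of all probe sets was −0.56 or −1.04, with 13304 or 22343 of 23824 probe sets called lower. Of the B cell genes, 0 were called higher and 11 or 28 lower, so the direction between the forms turns with the scaling. Without control mouse 1 and IL-4 mouse 2, the arrays set apart by muscle genes, 7 genes were called with IL-4 (Ms4a1, Cr2, Cd72, Tnfrsf13c, Spib, Bcl11a and Ikzf3) and 3 with IL-4d2 (Cd72, Spib and Ikzf3).

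Promoter windows of RefSeq (GRCm38.p6), from 250 bases before to 50 after the start, were matched for 25 of the 32 genes, 9 of them among those called with IL-4, and 4 motifs were searched on both strands. A gene counted where any of its windows held the motif. The E box CAGGTG was in windows of 12 of the 25 genes, against 22.6% of 27018 genes. The ETS core GAGGAAGT was in those of Btla, Cd37, Cd72 and Fcrl1, against 3.69% of all genes. The octamer ATGCAAAT, which Oct-2 binds, was in those of Blnk and Vpreb3 (1.97% of all genes), and the EBF motif in that of Cd22 (1.06%). Of the 9 called genes with a window, 5 held the E box, 1 the ETS core, 1 the EBF motif and 0 the octamer. These counts describe letters in a fixed window and show no binding.

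Beyond the 32 genes, 5 lists of the B cell pathway were read. Their counts stand beside 6.34% of all tested genes called higher and 6.63% lower with IL-4, and 0.859% and 0.401% with IL-4d2. An unadjusted p under 0.05 in the limma test was reached by 3466 and 1858 of all 11984 tested genes. Of 22 tested genes of antigen receptor signalling, 11 rose with IL-4 and 0 fell, and with IL-4d2 0 were called and 11 had an unadjusted p under 0.05. Fcgr2b, the inhibitory Fc receptor of B cells, which macrophages and dendritic cells also carry, had signals of 2888, 2927 and 2707 in the IL-4 mice, 1320, 1553 and 1645 in the IL-4d2 mice and 843, 1385 and 930 in the control mice. It rose 2.73-fold with IL-4 (1.45 ± 0.16, limma adjusted p = 0.000198). Malt1, a protease that links antigen receptors to NF-κB, had signals of 1689, 1294 and 1438 in the IL-4 mice, 809, 876 and 658 in the IL-4d2 mice and 496, 795 and 520 in the control mice, and rose 2.44-fold (1.29 ± 0.18, adjusted p = 0.00101). In both genes the IL-4 mice lay far above all others. Nckap1l, an actin regulator of blood cells, rose 1.75-fold (adjusted p = 0.00261) and Syk, the kinase that Cd79a and Cd79b recruit, 1.68-fold (adjusted p = 0.00386). Lat2 rose 1.81-fold (adjusted p = 0.0424), but 7 of 9 fits with 1 array left out did not call it.

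Of 12 tested genes of survival and costimulation, 6 rose with IL-4, and with IL-4d2 0 were called and 4 had an unadjusted p under 0.05. The receptor of IL-21, Il21r, rose 3.11-fold with IL-4 (1.64 ± 0.28, adjusted p = 0.00407). Its signal was 248, 236 and 236 in the IL-4 mice, 193, 102 and 201 in the IL-4d2 mice and 86.4, 49.1 and 67.8 in the control mice, and the IL-4d2 difference of 1.09 was not called (adjusted p = 0.0905). Il21r was above the array median in 0 control mice and entered the test through arrays of the cytokine viruses alone. Cd86, a costimulatory ligand of B cells and dendritic cells, rose 1.91-fold (adjusted p = 0.0225), Birc3, an inhibitor of apoptosis, 1.86-fold (adjusted p = 0.0166) and Traf2, an adaptor of these receptors, 1.81-fold (adjusted p = 0.0389). Leaving out 1 array ended the call in 4 of 9 fits for Cd86, 2 for Birc3 and 6 for Traf2. Cd40, through which T cells help B cells, had signals of 815, 683 and 647 in the IL-4 mice, 529.5, 513.5 and 581 in the IL-4d2 mice and 472, 524 and 492 in the control mice, and rose 1.42-fold with IL-4 (adjusted p = 0.0169).

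**Figure D3:**
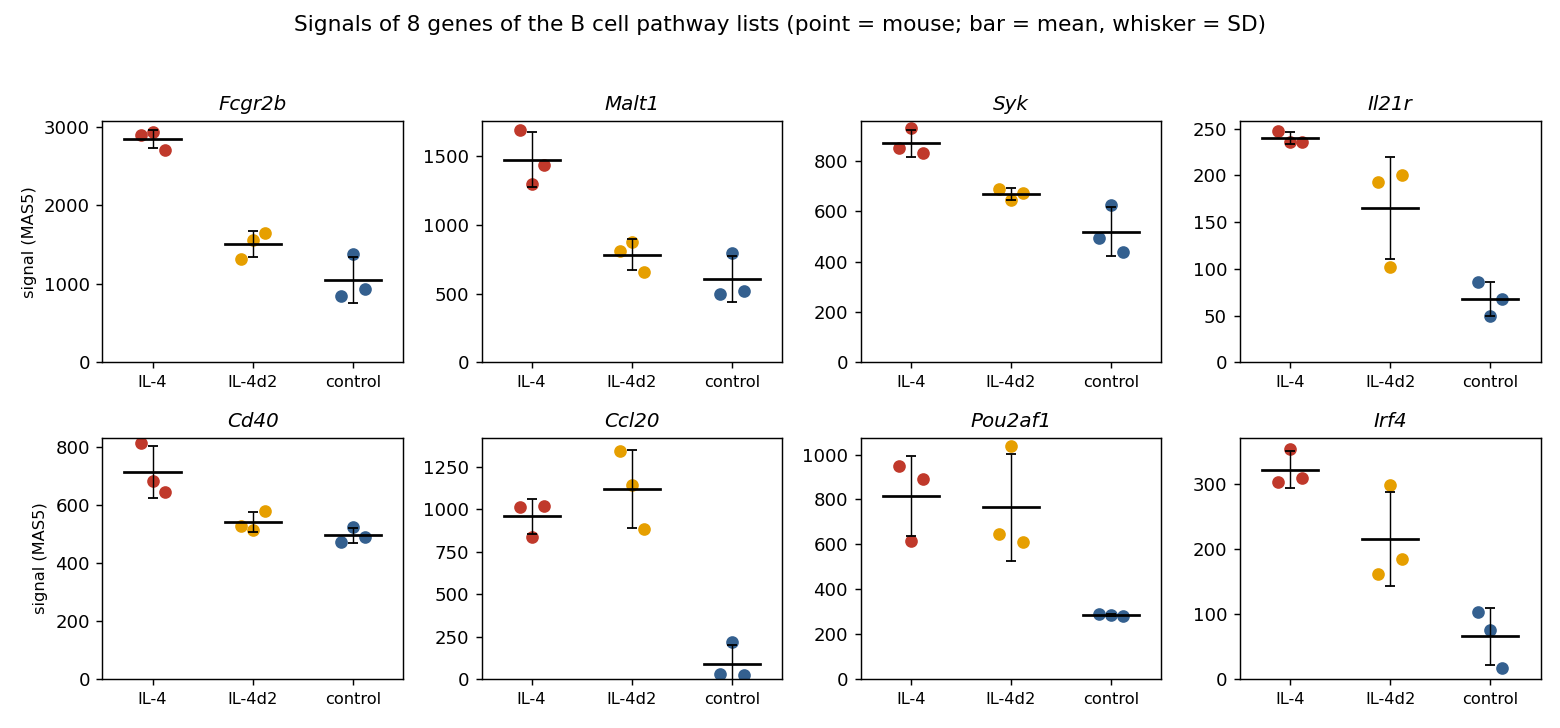
MAS5 signal (linear, axis from 0) of 8 genes of the B cell pathway lists by group, with a point per mouse, a bar at the mean and a whisker of 1 SD (n = 3 each). Fcgr2b and Malt1 of the IL-4 mice lie above all other mice, while Ccl20 and Pou2af1 of all cytokine mice lie above the control mice.

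Of 13 tested genes of migration and follicle organisation, 2 rose with IL-4 and 1 with IL-4d2. Ccl20, a chemokine that attracts cells bearing Ccr6, had signals of 1016, 839 and 1022 in the IL-4 mice, 1342, 1140 and 883 in the IL-4d2 mice and 30.3, 218 and 21.1 in the control mice. It rose 13.1-fold with IL-4 (3.72 ± 0.51, adjusted p = 0.00101), and under IL-4d2 it rose 15.2-fold (3.92 ± 0.51, adjusted p = 0.00171). Its receptor Ccr6, found on B cells and other leukocytes, rose 1.72-fold with IL-4 (adjusted p = 0.0471), a call lost in 7 of 9 fits with 1 array left out. Cxcl13, the chemokine of B cell follicles, had signals of 382, 500 and 689 in the IL-4 mice, 1204, 979.5 and 929.6 in the IL-4d2 mice and 185, 753 and 216 in the control mice. Control mouse 2 overlapped the IL-4 mice, and the differences of 0.67 with IL-4 (adjusted p = 0.311) and 1.67 with IL-4d2 (adjusted p = 0.0658) were not called. The receptor of Cxcl13, Cxcr5, had differences of 0.56 (adjusted p = 0.084) and 0.29 (adjusted p = 0.53).

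Of 15 tested genes of B cell transcription and the germinal centre, 3 rose with IL-4 and 1 with IL-4d2. Pou2af1, the B cell coactivator of octamer factors, had signals of 947, 614 and 890 in the IL-4 mice, 646, 1037 and 610 in the IL-4d2 mice and 291, 283 and 282 in the control mice. It rose 2.72-fold with IL-4 (1.44 ± 0.20, adjusted p = 0.00109), and under IL-4d2 it rose 2.52-fold (1.33 ± 0.20, adjusted p = 0.00522), with no cytokine mouse near the control mice. Irf4, a factor of activated B cells and plasma cells, had signals of 302, 354 and 309 in the IL-4 mice, 162, 298 and 185 in the IL-4d2 mice and 104, 75.7 and 16.9 in the control mice. It rose 4.74-fold with IL-4 (2.24 ± 0.40, adjusted p = 0.00499), and its difference of 1.66 with IL-4d2 was not called (adjusted p = 0.0708). Nfkbid rose 2.07-fold with IL-4 (adjusted p = 0.0285), a call lost in 4 of 9 fits with 1 array left out. Both Irf4 and Nfkbid were above the array median in 0 control mice and entered the test through arrays of the cytokine viruses alone.

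Genes of antibody-secreting cells had a median log2 difference of 0.87 with IL-4 and 0.35 with IL-4d2. Of 14 tested, 9 rose, and 1 (Prdm1) fell with IL-4, and 4 rose with IL-4d2 (Jchain, Ighm, Mzb1 and Creld2). The 9 include Irf4, which counts in 2 lists, and Eaf2, neither of them above the array median in any control mouse. Jchain, which joins IgM and IgA into polymers, had signals of 5903, 12485.5 and 12144 in the IL-4 mice, 9134, 19089.8 and 7369 in the IL-4d2 mice and 452, 588 and 372 in the control mice. It rose 20.2-fold with IL-4 (4.33 ± 0.34, adjusted p = 2.07e-05), and under IL-4d2 it rose 22.8-fold (4.51 ± 0.34, adjusted p = 2.12e-05). Ighm, the heavy chain of IgM, which B cells and plasma cells share, rose 5.89-fold with IL-4 (adjusted p = 0.00117), and the change under IL-4d2 was 6.48-fold (adjusted p = 0.00212). Mzb1, a chaperone of IgM assembly, rose 3.19-fold under IL-4 (adjusted p = 0.000748) and 3.60-fold under IL-4d2 (adjusted p = 0.000783). In each of these 3 genes all cytokine mice exceeded all control mice. Prdm1, the plasma cell regulator Blimp-1, which other lung cells also express, fell to 361, 411 and 394 in the IL-4 mice, with 439, 442 and 445 in the IL-4d2 mice, against 539, 519 and 687 in the control mice (log2 difference −0.55 with IL-4, adjusted p = 0.0173).

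Markers of other cells differed between the same groups, and their part in the B cell results was not tested. Over all tested genes, 6.34% rose and 6.63% fell with IL-4, and 0.859% and 0.401% with IL-4d2. With IL-4d2, 1858 of all 11984 tested genes had an unadjusted p under 0.05 in the limma test. Of 15 tested T cell genes, 4 rose with IL-4 and 3 with IL-4d2, with summed signals of 5624 to 7091 in IL-4 mice, 5296 to 6243 in IL-4d2 mice and 3660 to 4839 in control mice. Of 10 dendritic cell genes, 5 rose with IL-4 and 0 with IL-4d2 (2 with an unadjusted p under 0.05), with sums of 9211 to 10281, 4327 to 5264 and 4078 to 5536. Of 13 macrophage and monocyte genes, 6 rose and 2 fell with IL-4 and 0 were called with IL-4d2 (6 with an unadjusted p under 0.05), with sums of 54909 to 61077, 46584 to 53052 and 42615 to 57110. Of 5 neutrophil genes 2 fell with IL-4, with sums of 1245 to 2358, 3985 to 8563 and 3956 to 6926, and of 8 fibroblast and fat genes 1 rose and 4 fell, with sums of 20034 to 21361, 19406 to 25029 and 23405 to 29797. All 10 muscle genes had negative log2 differences with IL-4 and 8 fell, with sums of 1828 to 7978, 6583 to 22094 and 16337 to 83704. With IL-4d2, 0 neutrophil, fibroblast and fat, or muscle genes were called. An unadjusted p under 0.05 in the limma test was reached by 0 of 5, 6 of 8 and 5 of 10 in that order. All 10 muscle genes had negative log2 differences with IL-4d2 as well. In each of these sets of ranges the order is IL-4, IL-4d2 and control mice. The sums cover every gene of a list with a probe set, also untested genes. The lists held 15 T cell, 11 dendritic cell, 14 macrophage and monocyte, 8 neutrophil, 9 fibroblast and fat and 10 muscle genes with a probe set. Of 6 tested markers of lymph node stroma and follicular dendritic cells, 2 rose with IL-4 and 1 with IL-4d2, and the others of that list, Glycam1, Madcam1, Chst4 and Coch, were below the array median on all 9 arrays.

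**Figure D4:**
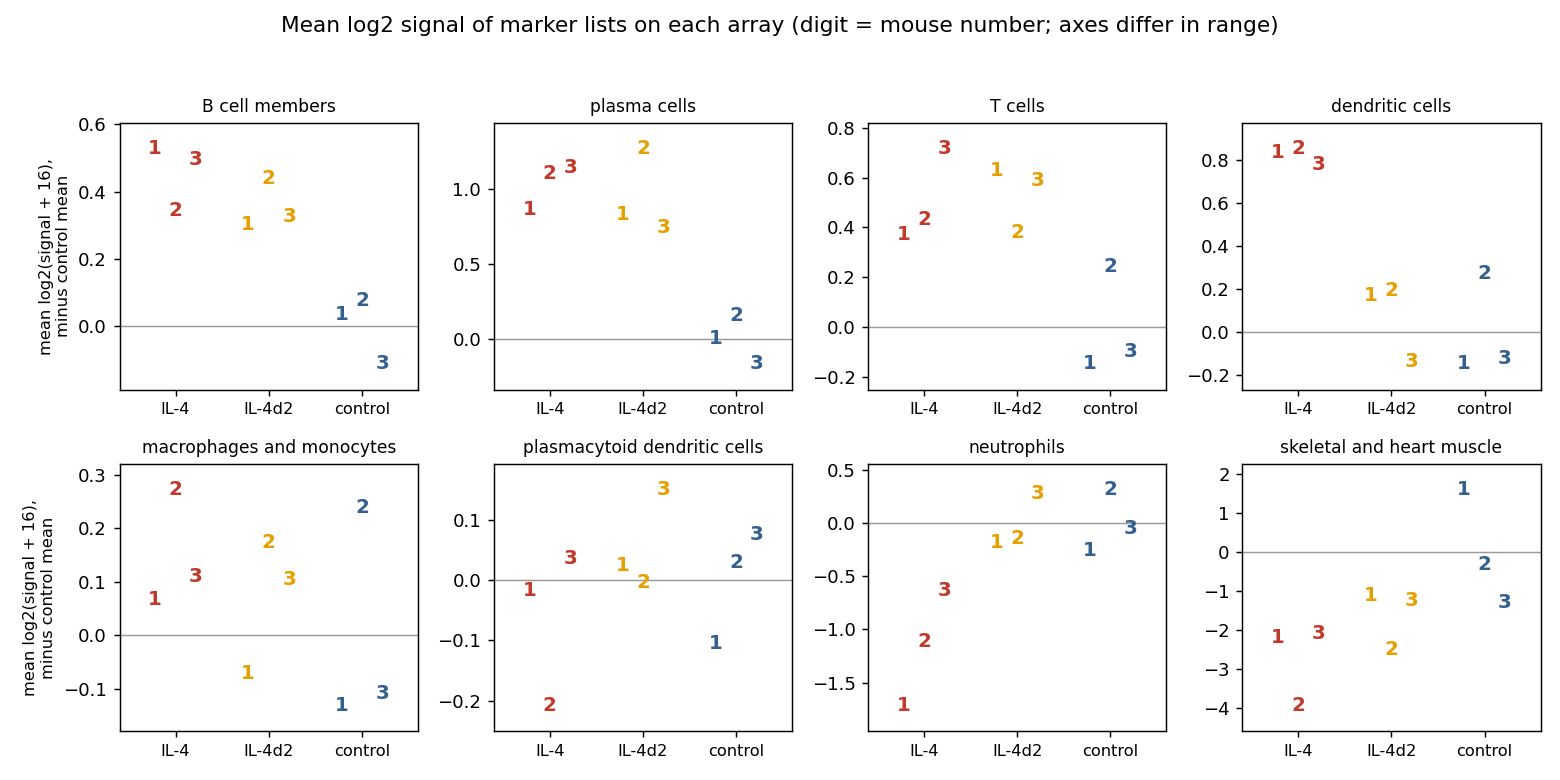
Mean of log2(signal + 16) over the tested genes of 8 marker lists on each array, given as the difference from the mean of the control mice. Each digit is a mouse number, and axis ranges differ between panels. The B cell genes of all cytokine mice lie above those of all control mice, while the dendritic cell genes of the IL-4 mice lie above all other mice and muscle genes are highest in control mouse 1.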

How the data were processed

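The values deposited by the authors are MAS5 signal intensities, 1 per probe set and array, linear in scale. Affymetrix Expression Console 2.0, MAS5 and GCOS are named per the submitters' processing notes, which do not say what each did. Each array had been scaled by 1 factor, since the trimmed mean (2% off each end) was 500.002 on all 9 arrays. Arrays have no depth, and their number limits the precision. Sequences of the probes were not used here.

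Gene symbols came from the platform annotation. Of 45101 probe sets, 34958 had 1 symbol, 932 had several (not used) and 9211 were unnamed here. A gene was read from its tested probe set with the highest mean log2 signal.

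Signals were taken as log2(signal + 16), which understates changes of dim genes. Probe sets above their array's median on at least 3 of 9 arrays were tested, without 64 control probe sets. All 9 arrays entered 1 fit (lmFit and eBayes with trend, limma 3.58.1, R 4.3.3, 6 residual degrees of freedom), checked on simulated data. Tests were two-sided, adjusted by the Benjamini-Hochberg method over all tested probe sets within a contrast, with a threshold of 0.05. The labels name separate mice, so p-values measure the spread between mice. Errors after signals are SDs and after log2 differences SEs of the fit. Replicate numbers were not used to pair the mice across groups in the main fit.

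The members, lists, tests and naming rule were chosen with earlier results of these data known. The rule gives array values for members called against control virus, ranges for others, and values for up to 4 called genes of each pathway list with the largest change or, where fewer than 2 were called, the 2 brightest. Lists of other cell types are given as counts and sums. Syk, Cd40, Cxcl13, Cxcr5, Tnfsf13b and Prdm1 were named after their values were seen, as were the values per array of Vpreb3. Alternatives covered pseudocounts, filters, normalization, variance model, samples in the fit, each array left out, the replicate number as a block, arrays with unusual muscle signal and, added after the data were seen, control transcript scaling. Genes named in the lists that had no single-symbol probe set were not analysed here.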

Additional observations from a re-analysis of the deposited data

Results flagged for a closer look

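In the direct limma test of IL-4 against IL-4d2, 2 of 22 tested genes of antigen receptor signalling and 1 of 14 of antibody-secreting cells were called, with 0 of 12 of survival, 0 of 13 of migration and 0 of 15 of transcription, beside 2.24% of all tested genes. Fcgr2b had signals of 2841 ± 118 in IL-4 mice, against 1506 ± 168 in IL-4d2 mice, a log2 difference of 0.91 (adjusted p = 0.0129), which lost its call without IL-4d2 mouse 1. Malt1 had 1474 ± 200 in IL-4 mice, against 781 ± 112 in IL-4d2 mice, a log2 difference of 0.90 (adjusted p = 0.0256), lost in 4 of 9 fits with 1 array left out (IL-4 mice 1 and 3, IL-4d2 mice 1 and 3). Edem1, which targets misfolded proteins of the secretory pathway for degradation, had 1851 ± 71.2 in IL-4 mice, against 1352 ± 124 in IL-4d2 mice (errors are SDs over 3 mice), a log2 difference of 0.45 (adjusted p = 0.0377), lost in 6 of 9 fits (each IL-4 and each IL-4d2 mouse). In all 3 genes every IL-4 mouse exceeded every IL-4d2 mouse, but the differences were negative when arrays were scaled to poly-A controls. All 3 calls were also lost with eBayes without trend and under hybridisation scaling. Edem1 further lost its call without the filter and in a fit of the IL-4 and IL-4d2 mice alone. The same held for Edem1 without control mouse 1 and IL-4 mouse 2. Of the dendritic cell markers, which also carry Fcgr2b, 4 of 10 were called higher with IL-4 than with IL-4d2, and their part was not tested.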

How the results depend on the processing

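Pseudocounts of 1 and 64, quantile normalization and the stricter or absent filter left the member counts within 1.5 times of 13, 4 and 0 for IL-4, IL-4d2 and IL-4 against IL-4d2, and no sign of a called member turned except under control transcript scaling. Leaving out 1 array gave 9 to 14 members with IL-4, 3 to 7 with IL-4d2 and 0 to 1 between the forms. The 7 came without control mouse 2 and included a fall of Ebf1. Without IL-4 mouse 1, 10 members were called with IL-4, 9 higher and Vpreb3 lower. Over all probe sets, the counts of 2546, 314 and 416 became 1313 to 2210, 156 to 417 and 110 to 446. Without control mouse 1 and IL-4 mouse 2 they were 1068, 200 and 237, with 7 members for IL-4. eBayes without trend gave 195 probe sets for IL-4d2 and 165 between the forms, and no filter gave 244 between the forms. A fit of the IL-4 and IL-4d2 mice alone called 1 member between the forms. With the replicate number as a block, 16 members were called with IL-4 (15 higher and 1 lower), 3 with IL-4d2 and 0 between the forms. Deviations of same-numbered mice correlated at −0.07 to 0.12, over 0.1 in 2 of 9 pairs. Those of 18 differently numbered pairs correlated at −0.13 to 0.13, over 0.1 in 1. Between IL-4 and IL-4d2 mice, same-numbered pairs had 0.07 to 0.12 and the others −0.09 to −0.01. With 3 mice per group, these values cannot settle whether the numbers pair the mice. Scaling to hybridisation controls gave 7823 probe sets and 5 members for IL-4, and 13393 and 11 between the forms, and scaling to poly-A controls gave 17342 for IL-4 and 22374 and 28 between the forms, where the cause of the shift was not tested. Of the 30 members, 26 had a positive difference with IL-4 in the main fit, 16 under hybridisation scaling and 9 under poly-A scaling. Between the forms these counts were 22, 1 and 0. Turned signs are listed only for genes called in the main fit or under the scaling, and uncalled genes also changed sign. With IL-4 under poly-A scaling the listed genes were Cd79b −0.33, Cd37 −0.62, Btla −0.66, Cd180 −0.64, Ly6d −0.078, Ptprcap −0.73, Tnfrsf13b −0.20, Bank1 −0.23 and Bcl6 −0.59. Between the forms they were Ms4a1 −0.52, Cd37 −0.54, Ly6d −0.53 and Edem1 −0.12 under hybridisation scaling. Under poly-A scaling they were Ms4a1 −1.02, Cd79a −0.72, Cd79b −0.88, Cr2 −0.62, Cd37 −1.03, Fcrl1 −0.93, Fcmr −0.96, Ly6d −1.02, Tnfrsf13c −0.79, Tnfrsf13b −0.76, Blk −0.84, Btk −0.92, Blnk −0.95, Plcg2 −0.96, Bank1 −0.93, Swap70 −0.90, Pax5 −0.84, Ebf1 −0.82, Bcl11a −0.58, Bcl6 −0.81, Fcgr2b −0.16, Malt1 −0.16 and Edem1 −0.62. Precision is limited by having 3 arrays in each group.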
